A study of Rattus norvegicus with 9 samples.

Results

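The genes described here are 10 components of bone morphogenetic protein (BMP) signalling, a pathway tied to pulmonary arterial hypertension. They comprise the ligands Bmp4 and Bmp6, the receptors Bmpr2, Bmpr1a, Acvrl1 and Eng, the intracellular transducer Smad1 and inhibitor Smad6, and the target genes Id1 and Id3. They were chosen by name, as the probes whose only gene symbol is one of these 10, and they are 10 of the 14497 genes that a probe of the array names. Each of the 10 had exactly 1 probe, and all 10 probes lay above the 25th percentile of probe means (6.48 on the log2 scale). RNA was taken from the lungs of 3 Wistar rats in which metabolic syndrome (MetS) had been induced and of 4 control Wistar rats. For 24 weeks the MetS rats had only 30% sucrose solution to drink and the controls only water, on the same standard chow without restriction. All were decapitated after 7 hours of fasting. The labels name the MetS rats as male but are silent on the sex of the controls, so that an effect of sex, if it differed, and of treatment cannot be told apart. No pulmonary pressure or vascular measurement was used here. MetS rat 1 and control rat 1 had been hybridised 2 times, and their arrays were averaged, which made 7 animals of the 9 arrays. The sources used here do not say whether rats shared a litter or a batch. Values are log2 expression on an Affymetrix rat gene array, and only the same probe is compared between animals.

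BMPs are secreted factors that bind a pair of type I and a pair of type II receptor chains on the cell surface. The type II chain phosphorylates the type I chain, which phosphorylates SMAD1, SMAD5 and SMAD9, and these join SMAD4 and move to the nucleus, where the ID genes are among the most direct targets. In the endothelium of lung vessels the complex is built mainly from BMPR2, the type I chain ALK1 (the product of Acvrl1) and the co-receptor endoglin (the product of Eng). In people, inherited mutations of BMPR2 are the leading known cause of heritable pulmonary arterial hypertension, and mutations of ACVRL1 and ENG cause hereditary haemorrhagic telangiectasia. The comparison asked whether the lung transcripts of this pathway differed between MetS and control rats.

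No BMP gene of the 10 differed between MetS and control lungs beyond the spread of the animals. Their log2 differences, MetS minus control, lay between -0.09 for Id3 and 0.15 for Bmp6, which is 0.937-fold to 1.11-fold. Of the 10, 8 read higher and 2 lower in MetS lungs, with a median of 0.06, beside 62.05% of the 14497 named genes reading higher with a median of 0.04. For the 10 genes the split was 6 higher and 4 lower after quantile normalizing again. It was 4 higher and 6 lower without controls 2 and 3, and also with the SD of the values within an animal as a term of the model. The share of all named genes reading higher moved too. It was 64.05% after quantile normalizing again, 54.78% without controls 2 and 3, and 48.84% with that SD term. With limma, 0 of the 10 passed an adjusted p under 0.05, and their adjusted p lay between 0.531 and 0.964. The same test called 0% of the 28826 probes. With an unadjusted threshold of 0.05 it also took 0 of the 10, beside 3.82% of probes higher and 9.91% of probes lower in MetS. The MetS and control animals overlapped for all 10 genes, whereas 4.88% of probes had all MetS values above the controls and 6.84% had all below. At their widest the 95% intervals reached 0.780-fold for Id3 and 1.37-fold for Bmp6.

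Several features of the libraries are set beside these values, and their part in the results was not tested. A mean of 5 heart muscle markers (Actc1, Tnni3, Myh6, Ryr2 and Tnnt2) stood at 9.28 in MetS animal 1 and 10.64 in control animal 1, against 7.25 to 7.30 in the remaining MetS and 6.94 to 7.08 in the remaining control animals. A mean of 9 endothelial markers (Pecam1, Cdh5, Tek, Tie1, Kdr, Cldn5, Emcn, Esam and Robo4) was 10.27, 10.55 and 10.60 in MetS animals 1 to 3, against 10.38, 10.43, 10.42 and 10.58 in controls 1 to 4. MetS animal 1 and control animal 1 thus had the 2 highest heart muscle means and the 2 lowest endothelial means. Red cell markers averaged 10.24 to 10.61 in MetS and 9.51 to 10.30 in control lungs. The spread of the values within an animal, as the SD across probes, was 1.93, 1.90 and 1.88 for MetS animals 1 to 3, against 1.85, 1.77, 1.76 and 1.88 for controls 1 to 4, with controls 2 and 3 the lowest. It ran higher in MetS than in controls 1 to 3, so a fit with this SD as a term cannot cleanly tell SD and MetS apart. Alveolar type 2 markers, which define lung, ranged from 12.58 to 12.65 in MetS and from 12.57 to 12.64 in control lungs. Between the arrays of 1 animal the 10 genes differed by a median of 0.03 and at most 0.13.

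**Figure D1:**
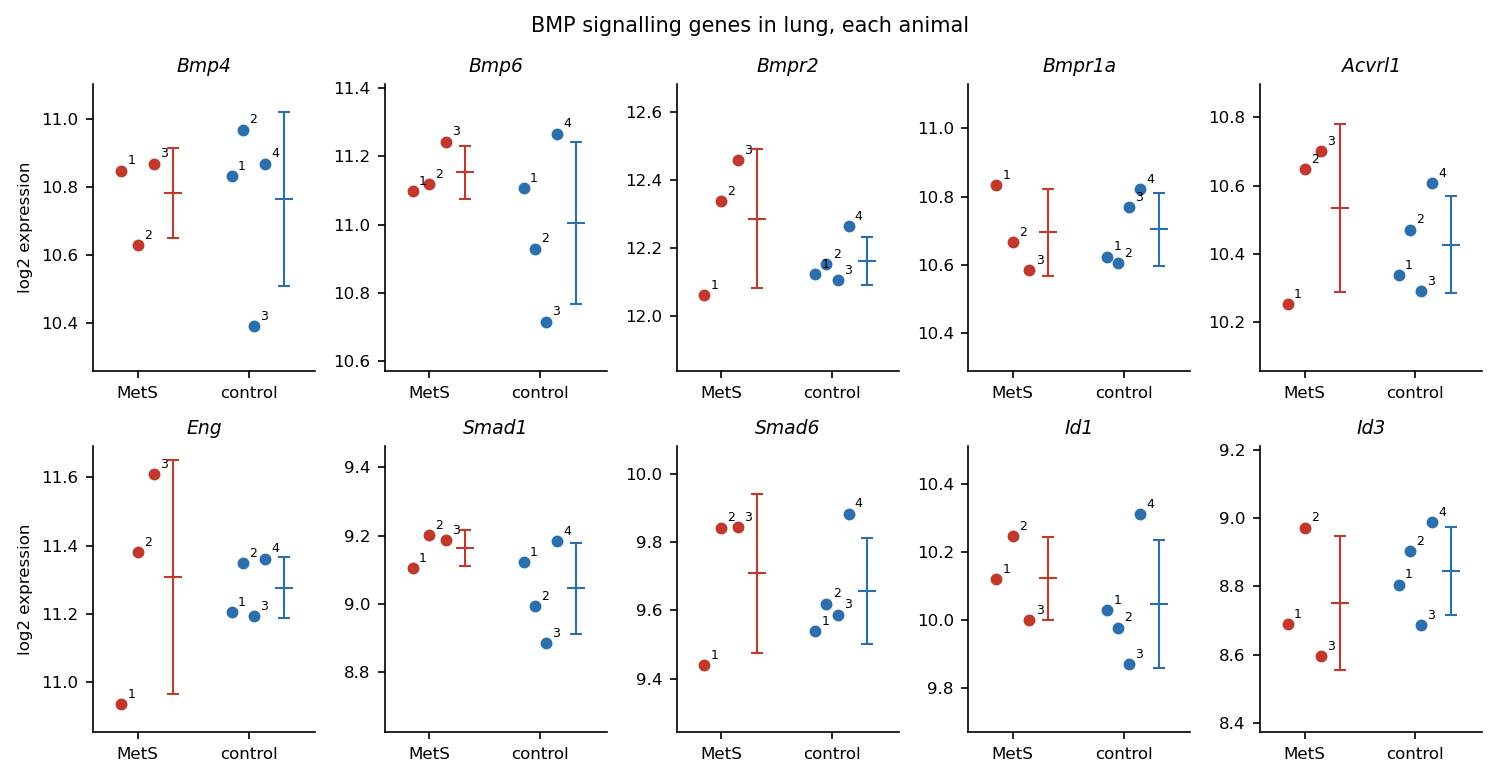
Log2 expression of the 10 BMP genes in each MetS (red, left) and control (blue, right) animal, with the animal number beside each point and mean ± SD at the right of each group; every panel spans the same log2 height. MetS and control points overlap in all 10 panels, and MetS animal 1 is the lowest point for Bmpr2, Acvrl1, Eng and Smad6.

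The promoters of Bmpr2, Eng and Id1 are shown first, since Bmpr2 and Eng varied together over the animals and Id1 is a direct readout of the pathway. The RefSeq promoter table of assembly GRCr8, from 250 bases before to 50 bases after the gene start, held 8 of the 10 genes; Acvrl1 and Smad6 are named only. Bmpr2 lies at chr9:68686566-68686865, Eng at chr3:36332029-36332328 and Id1 at chr3:161671314-161671613, all on the plus strand. Capitals mark CAGAC, a short element that SMAD proteins bind, and AGGAAG, a form of the element bound by the ETS factors of endothelial cells, on either strand (GTCTG and CTTCCT on the other).
Bmpr2: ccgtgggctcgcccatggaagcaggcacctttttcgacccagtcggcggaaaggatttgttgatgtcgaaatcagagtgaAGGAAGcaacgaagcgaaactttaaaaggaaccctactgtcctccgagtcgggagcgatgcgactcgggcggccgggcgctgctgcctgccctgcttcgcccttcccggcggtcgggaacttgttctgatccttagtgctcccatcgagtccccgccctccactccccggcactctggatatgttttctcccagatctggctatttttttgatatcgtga
Eng: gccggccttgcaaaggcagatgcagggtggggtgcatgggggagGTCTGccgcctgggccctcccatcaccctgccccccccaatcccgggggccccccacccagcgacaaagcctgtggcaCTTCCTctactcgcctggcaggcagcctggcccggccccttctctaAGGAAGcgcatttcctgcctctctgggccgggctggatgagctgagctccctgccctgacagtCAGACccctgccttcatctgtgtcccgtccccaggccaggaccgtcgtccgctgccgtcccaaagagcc
Id1: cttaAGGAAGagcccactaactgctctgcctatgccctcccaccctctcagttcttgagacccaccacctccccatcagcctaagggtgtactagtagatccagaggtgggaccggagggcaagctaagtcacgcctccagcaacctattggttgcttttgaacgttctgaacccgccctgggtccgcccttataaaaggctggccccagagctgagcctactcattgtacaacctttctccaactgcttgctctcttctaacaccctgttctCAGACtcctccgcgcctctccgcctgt
AGGAAG was found in 5 of the 8 promoters (Bmp6, Bmpr2, Eng, Id1 and Id3), beside 34.3% of the 27457 promoters of the table. CAGAC was found in 3 of the 8 (Bmp4, Eng and Id1), beside 50.0% of all. The Bmpr2 window holds AGGAAG at position -170 from the start, and the Eng window holds it in each orientation. The GC-rich BMP element GGCGCC was in 0 of the 8 windows and in 11.8% of all, and the ETS element CCGGAA was in 0 of the 8 and in 15.8% of all. The letters searched were chosen after the expression values were seen, the matches marked above do not overlap each other, and a match is a run of letters, not evidence of binding. The BMP-responsive region known from mouse Id1 lies farther upstream than this window.

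Of the ligands, Bmp4 is made by lung epithelium and endothelium and drives airway branching in the embryo. Its log2 values were 10.85, 10.63 and 10.87 in MetS lungs, against 10.83, 10.97, 10.39 and 10.87 in control lungs. Control 3 was the lowest of the 7 animals and control 2 the highest, so the MetS values lay within the control range. The means were 10.78 ± 0.13 in MetS and 10.77 ± 0.26 in controls (SD, n = 3 and 4), a difference of 0.02 (SE 0.145, limma adjusted p = 0.963).

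Bmp6, an endothelial ligand best known for inducing the iron hormone hepcidin in the liver, had values of 11.10, 11.12 and 11.24 in MetS lungs, against 11.11, 10.93, 10.72 and 11.27 in control lungs. The MetS animals lay together in the upper part of the control range, and control 3 was again the lowest. Bmp6 averaged 11.15 ± 0.08 in MetS and 11.005 ± 0.24 in controls, the widest difference of the 10 at 0.15 (SE 0.130, 95% interval -0.16 to 0.45, limma adjusted p = 0.600). It turned to -0.03 without controls 2 and 3 and to -0.12 with that within-animal SD as a term of the model.

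Bmpr2, the type II receptor whose human counterpart is mutated in heritable pulmonary arterial hypertension, had log2 values of 12.06, 12.34 and 12.46 in MetS lungs, against 12.12, 12.15, 12.11 and 12.26 in control lungs. MetS animal 1 was the lowest of all 7 and MetS animals 2 and 3 were the highest, so the MetS group enclosed the controls. The means were 12.29 ± 0.20 in MetS and 12.16 ± 0.07 in controls, a difference of 0.12 (SE 0.102, 95% interval -0.11 to 0.36, limma adjusted p = 0.576). Without MetS animal 1 the difference was 0.24 (SE 0.0801, unadjusted p = 0.0244 and adjusted p = 0.591 with limma). Without MetS animal 1 and control animal 1 it was 0.22 (limma adjusted p = 0.578), and without MetS animal 3 it was 0.04.

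Acvrl1 codes for ALK1, the type I receptor for BMP9 and BMP10 on endothelial cells. It had values of 10.25, 10.65 and 10.70 in MetS lungs, against 10.34, 10.47, 10.29 and 10.61 in control lungs. As for Bmpr2, MetS animal 1 was the lowest of the 7 animals and MetS animals 2 and 3 the highest. The difference was 0.11 (SE 0.131, limma adjusted p = 0.708) with all animals, and 0.25 (SE 0.106, limma adjusted p = 0.591) without MetS animal 1. It was 0.05 without MetS animal 2 and 0.02 without MetS animal 3.

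Eng codes for endoglin, which presents BMP9 and BMP10 to ALK1. It had values of 10.94, 11.38 and 11.61 in MetS lungs, against 11.20, 11.35, 11.19 and 11.36 in control lungs. It had the widest spread of the 10 genes, 0.67 over the 7 animals, and that spread lay within the MetS group, whose SD was 0.34 against 0.09 in controls. The group difference was 0.03 (SE 0.152, 95% interval -0.33 to 0.39, limma adjusted p = 0.932). It was 0.22 without MetS animal 1 and -0.12 without MetS animal 3.

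Bmpr1a, which codes for the type I receptor ALK3 found on many cell types, did not follow that order. Its values were 10.83, 10.67 and 10.58 in MetS lungs, against 10.62, 10.60, 10.77 and 10.82 in control lungs. MetS animal 1 was here the highest of the 7 and MetS animal 3 the lowest. The difference was -0.01 (SE 0.0885, 95% interval -0.22 to 0.20, limma adjusted p = 0.964).

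**Figure D2:**
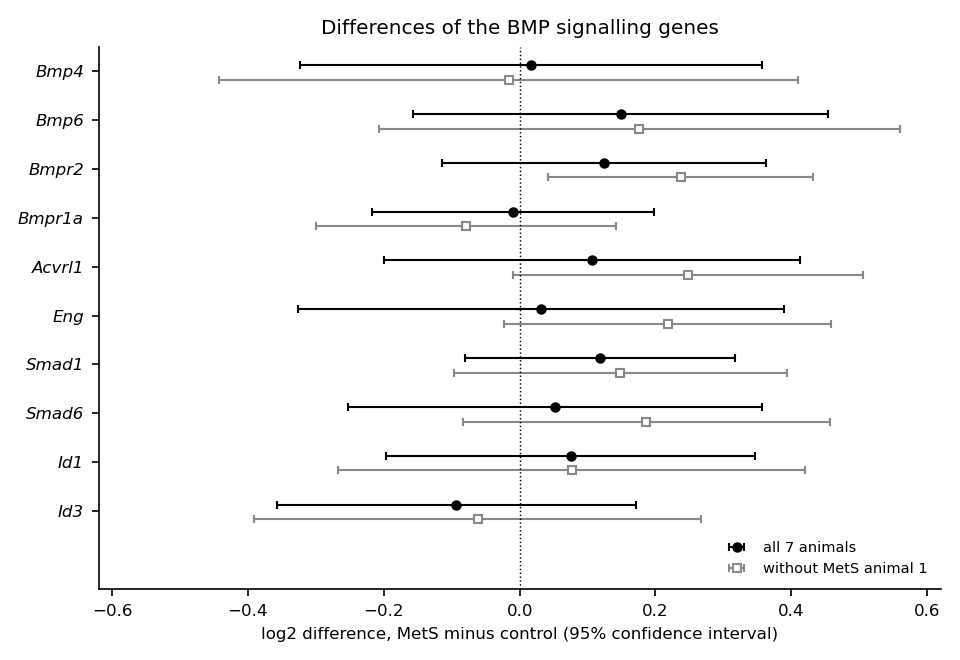
Log2 difference of each BMP gene (MetS minus control, limma) with its 95% confidence interval, for all 7 animals (black circles) and without MetS animal 1 (grey squares). All 10 black intervals include 0. Without MetS animal 1, the lowest of the 7 for Bmpr2, Acvrl1, Eng and Smad6, the differences of these genes are 0.24, 0.25, 0.22 and 0.19.

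Smad1, the receptor-activated transducer, had values of 9.10, 9.20 and 9.19 in MetS lungs, against 9.12, 8.99, 8.89 and 9.18 in control lungs. The MetS animals lay close together, and controls 2 and 3 were the lowest of the 7. Its difference of 0.12 (SE 0.0849) had the smallest p of the 10 genes, an unadjusted 0.205 and an adjusted 0.531 with limma. It read -0.03 with that within-animal SD as a term of the model.

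Smad6 is an inhibitory SMAD that BMP signals induce and that then blocks SMAD1. It had values of 9.44, 9.84 and 9.84 in MetS lungs, against 9.54, 9.62, 9.59 and 9.88 in control lungs. MetS animal 1 was again the lowest, while control 4 was the highest. The difference was 0.05 (SE 0.130, limma adjusted p = 0.861).

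Id1 and Id3 code for dimerisation partners that keep basic helix-loop-helix transcription factors from binding DNA, and their transcripts are standard readouts of BMP activity. Id1 had values of 10.12, 10.25 and 10.001 in MetS lungs, against 10.03, 9.98, 9.87 and 10.31 in control lungs, a difference of 0.08 (SE 0.116, 95% interval -0.20 to 0.35, limma adjusted p = 0.767). Id3 had values of 8.69, 8.97 and 8.60 in MetS lungs, against 8.81, 8.90, 8.69 and 8.99 in control lungs, a difference of -0.09 (SE 0.113, 95% interval -0.36 to 0.17, limma adjusted p = 0.703). Control 4 was the highest of the 7 animals for both, control 3 was the lowest for Id1 and MetS animal 3 the lowest for Id3. Each difference was smaller than the SD of either group. Id1 turned to -0.05 without controls 2 and 3 and to -0.17 with the within-animal SD as a term.

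Leaving out MetS animal 1 separated the groups for 4 of the 10 genes, all higher in MetS: Bmpr2, Acvrl1, Eng and Smad1. The lowest MetS value was then 12.34 against a highest control value of 12.26 for Bmpr2, and 9.19 against 9.18 for Smad1. That Smad1 margin was narrower than the 0.13 between the 2 arrays of control animal 1 for this gene. Over all probes 9.86% were separated in that direction without this animal. The same 4 genes were separated without MetS animal 1 and control animal 1, beside 13.9% of all probes. None of the 10 passed the adjusted threshold in either case.

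The animals' order was the same for Bmpr2, Acvrl1 and Eng. From low to high it ran MetS 1, then controls 3, 1, 2 and 4, then MetS 2 and MetS 3, with a Spearman rho of 1.0 for each pair. Of 4 relations planned between the genes, Acvrl1 with Eng had r = 0.899 over 7 animals (exact permutation p = 0.000397, adjusted over the 4 0.00159) and rho = 1.0 (exact permutation p = 0.000397, adjusted 0.00159). It was r = 0.95 without MetS animals 1 and 3, the farthest from the median, and 0.923 for deviations from the group means. Without MetS animal 3 alone r was 0.856 and its adjusted p 0.0667 (exact permutation test). Id1 with Id3 had r = 0.670 (exact permutation p = 0.107, adjusted 0.214) and rho = 0.679 (exact permutation p = 0.110, adjusted 0.219). Its r was -0.028 without MetS animal 2 and control 4, the farthest from the Id1 median. It was 0.757 without MetS animal 1 and control animal 1, and 0.825 for deviations from the group means. Id1 with Smad6 had r = 0.515 (exact permutation p = 0.236, adjusted 0.315) and rho = 0.321 (exact permutation p = 0.498, adjusted 0.498). Id3 with Smad6 had r = 0.388 (exact permutation p = 0.360, adjusted 0.360) and rho = 0.357 (exact permutation p = 0.444, adjusted 0.498). Without the 2 animals farthest from the median of the first gene, r was -0.360 for Id1 with Smad6 and 0.823 for Id3 with Smad6.

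Over all 45 pairs of the 10 genes, 3 passed after adjustment over the 45, by Pearson and by Spearman alike. They were Bmpr2 with Acvrl1 (r = 0.949, adjusted p = 0.00893), Acvrl1 with Eng (adjusted p = 0.00893) and Bmpr2 with Eng (r = 0.896, adjusted p = 0.0387), all by exact permutation tests. Without the 2 animals farthest from the median of the first gene, Bmpr2 with Acvrl1 had r = 0.971 and Bmpr2 with Eng r = 0.820. The next were Bmp6 with Smad1 (r = 0.956, adjusted p = 0.0536 by exact permutation) and Acvrl1 with Smad6 (r = 0.947, adjusted p = 0.0607 by exact permutation). Their rho was 0.857 each, with an adjusted p of 0.153 (exact permutation tests). Bmp6 with Smad1 was r = 0.616 without controls 2 and 3, which were the lowest for both genes. The 45 pairs share the same 7 libraries, and the share of pairs of all named genes that would pass is not given here.

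**Figure D3:**
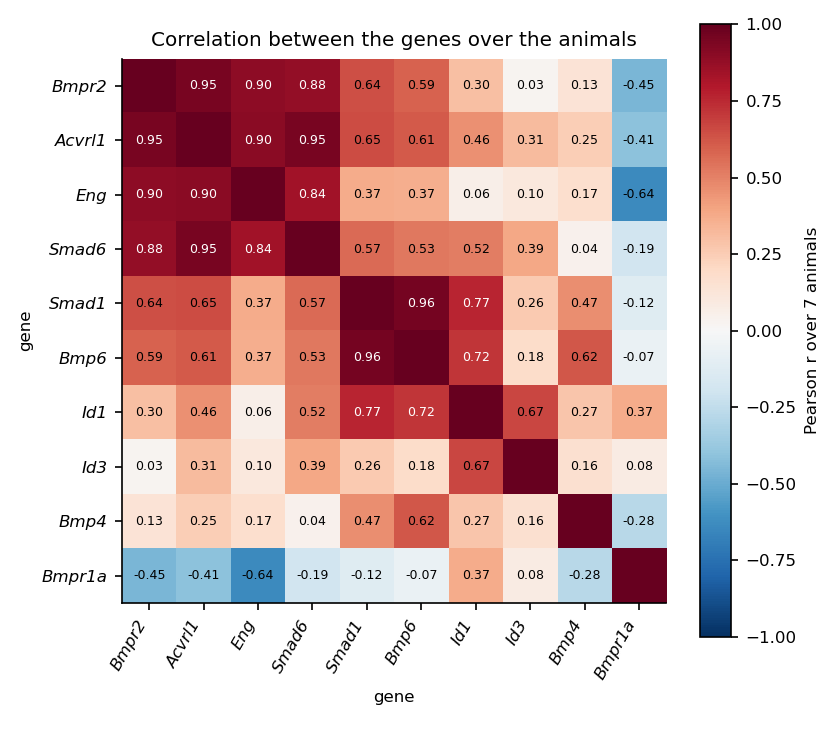
Pearson correlation between each pair of the 10 BMP genes over the 7 animals (colour scale from -1 to 1, r printed in each cell). Bmpr2, Acvrl1, Eng and Smad6 form a block with r between 0.840 and 0.949, and Bmp6 with Smad1 stands at 0.956.

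The endothelial markers moved with these genes. Over 7 animals their mean had r = 0.985 with Smad6, 0.938 with Acvrl1, 0.906 with Eng and 0.895 with Bmpr2, with adjusted p over the 10 genes of 0.00992, 0.0146, 0.0146 and 0.0189 (exact permutation tests). The Spearman rho was 0.964 for Smad6 and 0.929 for each of Acvrl1, Eng and Bmpr2, with an adjusted p of 0.0169 for all 4 (exact permutation tests). For the remaining 6 genes r ran from -0.299 for Bmpr1a to 0.490 for Smad1, and none passed. The share of all named genes that would pass is not given here, so the relation is not shown to be particular to these 4 genes. Without the animals farthest from the gene's median, r stayed between 0.792 for Eng and 0.978 for Smad6. For deviations from the group means, r was 0.987 for Smad6, 0.968 for Bmpr2, 0.962 for Acvrl1 and 0.906 for Eng.

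Without MetS animal 1 and control animal 1, the 2 with raised heart muscle markers, r was 0.982 for Smad6, 0.914 for Acvrl1, 0.888 for Bmpr2 and 0.745 for Eng. In those 5 animals Bmp6 and Smad1 had r of 0.954 and 0.951 with the endothelial mean, against 0.462 and 0.490 over all 7. With the endothelial mean of each animal as a term of the model, the MetS difference was 0.10 for Bmpr2 (SE 0.0608), 0.08 for Acvrl1 (SE 0.0662), 0.00 for Eng (SE 0.0865) and 0.02 for Smad6 (SE 0.0594), with limma adjusted p of at least 0.516. The SE of Bmpr2 was 0.102 without that term. In whole lung, fewer endothelial cells and less of these RNAs per cell cannot be told apart. The endothelial mean was set against these genes after their values had been seen.

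**Figure D4:**
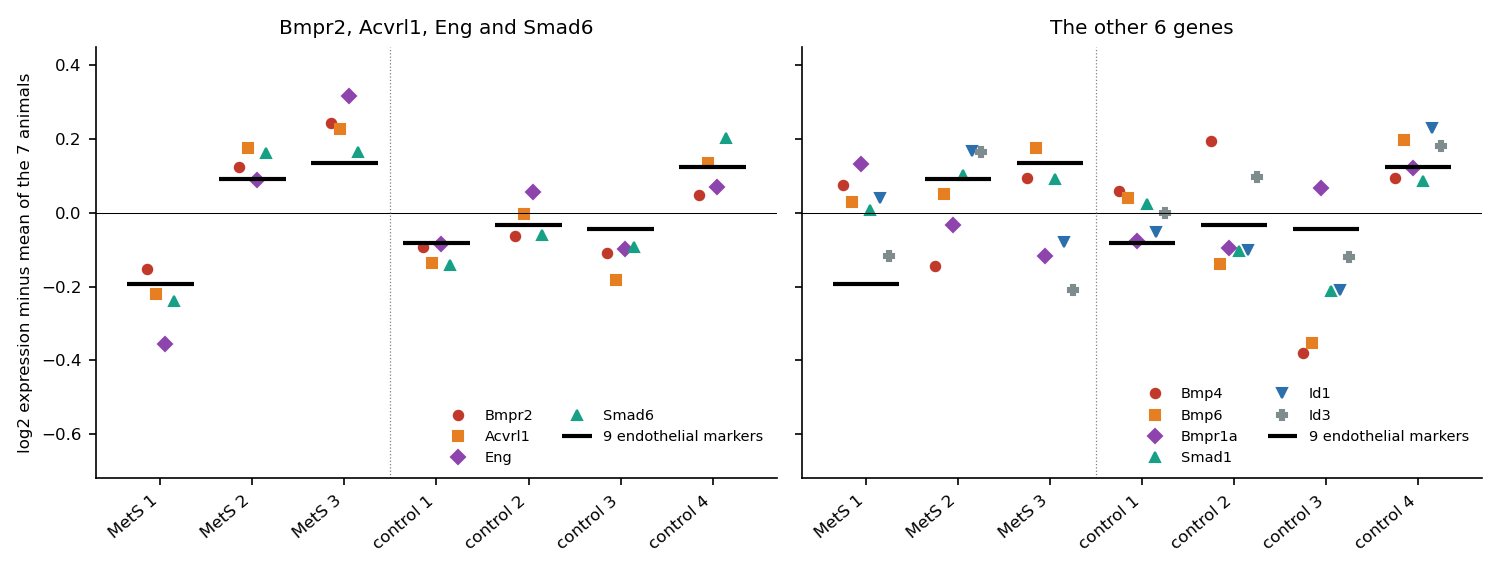
Log2 expression of each BMP gene in each animal minus its mean over the 7 animals (points, MetS left of the dotted line and controls right), with the mean of 9 endothelial markers on the same scale (black bars). Bmpr2, Acvrl1, Eng and Smad6 (left panel) lie near the bars in all 7 animals, lowest in MetS 1, while all 6 other genes (right panel) lie above the bar in MetS 1.

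The rest of the pathway was followed through lists of 56 further BMP genes, of which 45 were measured by a probe with 1 symbol. Of the 45, 34 read higher and 11 lower in MetS, with a median of 0.07, beside 62.05% of all named genes higher, and limma called 0 (smallest adjusted p = 0.324). The MetS animals lay above all controls for 5 of the 45 (11.1%), namely Bmp2, Acvr1, Acvr2a, Nog and Id4, and below all controls for 1 (2.22%), Bambi. Over all probes the shares were 4.88% above and 6.84% below. With the within-animal SD as a term, 26 of the 45 read higher and 19 lower.

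Among the ligands 8 of 9 read higher, with a median of 0.07, and Bmp2 was the only one of the 45 genes with an unadjusted p under 0.05. Bmp2, a close relative of BMP4, had log2 values of 7.00, 7.09 and 6.96 in MetS lungs, against 6.68, 6.44, 6.56 and 6.71 in control lungs. All 3 MetS animals lay above all 4 controls, by 0.42 on average (SE 0.0821), which is 1.33-fold (95% interval 1.17 to 1.53, unadjusted p = 0.00128 and adjusted p = 0.324 with limma). Bmp2 read higher in MetS under all 21 alternatives, between 0.27 with the within-animal SD as a term and 0.54 after quantile normalizing again, with limma adjusted p between 0.0545 and 0.999. Of these, the probe filters, the moderation setting and the mean of all probes cannot move the difference of a gene with 1 probe. Bmp3, which opposes other BMPs in bone and was picked out after its values were seen, had the widest difference of the lists at 0.61 (SE 0.379, limma adjusted p = 0.482). Its values were 9.40, 9.35 and 9.77 in MetS lungs, against 9.30, 9.12, 7.80 and 9.38 in control lungs. Control 3 alone lay far below the rest, and the difference was 0.24 without it (limma adjusted p = 0.634).

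Of the further receptors 7 of 8 read higher, with a median of 0.15. Acvr1, the type I receptor ALK2, had values of 8.84, 8.80 and 8.89 in MetS lungs, against 8.73, 8.55, 8.49 and 8.79 in control lungs. These groups narrowly did not overlap, and the difference was 0.20 (SE 0.0890, limma adjusted p = 0.372). It was 0.08 without controls 2 and 3 and 0.02 with the within-animal SD as a term. Neo1, which codes for neogenin, the receptor that binds the RGM co-receptors of BMPs, differed by 0.20 (limma adjusted p = 0.436), with overlapping groups. Of the SMADs, Smad5 differed by 0.14 and Smad9 by 0.04, and 3 of 3 read higher, where Smad9 turned to -0.02 after quantile normalizing again.

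Of the extracellular inhibitors 7 read higher and 4 lower, with a median of 0.02. The split was 5 higher and 6 lower after quantile normalizing again. It was 4 higher and 7 lower without MetS animal 1, without controls 2 and 3, and with the within-animal SD as a term. The BMP antagonist Chrdl1 differed by 0.21 (SE 0.209), and Grem1, which codes for gremlin, differed by -0.17 (limma adjusted p = 0.431), but by 0.05 after quantile normalizing again. Of the intracellular inhibitors 5 read higher and 1 lower, and 3 each with the within-animal SD as a term. Bambi, a pseudoreceptor that lacks the kinase domain, had values of 8.31, 8.34 and 8.43 in MetS lungs, against 8.45, 8.44, 8.66 and 8.58 in control lungs. The groups narrowly did not overlap, with MetS lower by a log2 difference of -0.17 (SE 0.0763, limma adjusted p = 0.381). This direction held under all 21 alternatives, some of which cannot move it. The ubiquitin ligase gene Smurf2, whose product marks SMADs and receptors for degradation, differed by 0.20.

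The further target genes split 4 higher and 4 lower, with a median of 0.07. Gata2, a transcription factor of endothelial and blood cells, differed by 0.26 (SE 0.144) and the Notch and BMP target Hey1 by 0.19, with limma adjusted p of 0.437 and 0.421. Without MetS animal 1, 7 of the 8 read higher.

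**Figure D5:**
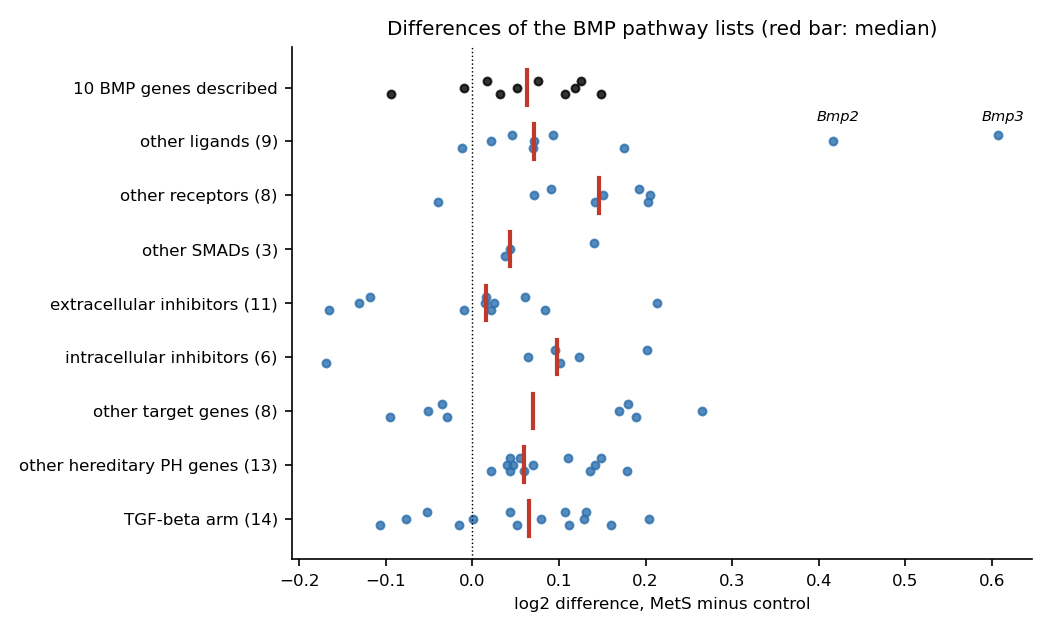
Log2 difference (MetS minus control) of each measured gene of the BMP and TGF-beta lists (points, number measured in brackets) with the list's median (red bar); the top row holds the 10 BMP genes. Bmp2 at 0.42 and Bmp3 at 0.61 lie to the right of all other points, and all list medians lie between 0.02 and 0.15.

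Genes whose human counterparts are mutated in hereditary pulmonary hypertension made a list of 16, all of them measured. It holds Bmpr2, Acvrl1 and Eng, and 13 that are not among the 10. Of the 13, Kdr is also an endothelial marker, and Bmpr1b, Smad9 and Gdf2 are also among the 45 further BMP genes. All 16 read higher in MetS, with a median of 0.06, and limma called 0 of them (smallest adjusted p = 0.383). Atp13a3, a polyamine transporter gene, differed by 0.18 (SE 0.0814), and Sox17, a transcription factor of arterial endothelium, by 0.15 (SE 0.176). Only Cav1, which codes for the caveolar coat protein caveolin, had groups that did not overlap, with a difference of 0.07. Over all probes 4.88% had all MetS values above the controls and 6.84% had all below. The count of higher genes was 14 of 16 after quantile normalizing again, 15 without MetS animal 1, 11 with the within-animal SD as a term and 11 without controls 2 and 3. Over all named genes, 62.05% read higher with all animals and 48.84% with the within-animal SD as a term.

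The transforming growth factor beta (TGF-beta) arm uses SMAD2 and SMAD3 and is often described as opposing BMP signals in lung vessels. Of its 16 listed genes 14 were measured, 10 higher and 4 lower in MetS with a median of 0.07, and limma called 0 (smallest adjusted p = 0.474). The type I receptor gene Tgfbr1 differed by 0.20 (SE 0.132). Ccn2, a matrix-associated TGF-beta target, had values of 10.53, 10.11 and 10.78 in MetS lungs, against 10.49, 10.50, 9.75 and 10.50 in control lungs, a difference of 0.16 (SE 0.233). With the within-animal SD as a term 3 of the 14 read higher and 11 lower, and without controls 2 and 3 the split was 6 higher and 8 lower.

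The genes whose pattern over the 7 animals was most like that of Id1, among 11999 genes with a mean above the 25th percentile, were Zfp110 (Pearson r = 0.988), Slc38a9 (0.978), Map3k11 (0.976), Tnpo1 (0.974) and Dus2 (0.967). In all, 73 genes had an r above 0.9 with Id1, and these values share the same 7 libraries. Of the other BMP genes, Smad1 stood at rank 704 of that order (r = 0.766), Bmp6 at 1230 (r = 0.715) and Id3 at 1755 (r = 0.670).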

How the data were processed

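Total lung RNA was extracted with Trizol, kept at an RNA integrity number of at least 6, and 50 ng was used to make biotinylated targets, per the labels' protocols. The deposited values are log2 expression values, 1 column per array. The submitters' processing notes name RMA, limma and R 2.11.0 without saying what each did, and no genome build is given in the sources used here. Array medians lay between 7.64 and 7.69. The number of animals limits the precision, and the limma p-values set each group difference against the spread between these animals.

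The members and the gene lists were chosen with earlier results of these data known. Probes were named through the platform annotation, with symbols updated to RefSeq (15184 of 15209 probes with 1 symbol matched), and the probe with the highest mean stood for a gene. Technical arrays were averaged per animal, and MetS minus control was fitted to the log2 values with limma 3.58.1 (lmFit, eBayes; R 4.3.3). P-values were adjusted by Benjamini-Hochberg across the 28826 probes, and the test was tried on simulated data. Correlations were tested over all 5040 pairings of 7 animals with numpy 2.4.6 in Python 3.11.15. The text names all 10 members, the further genes with an unadjusted p under 0.05 or else the 2 widest of a list (of the lists of the pathway, the hereditary genes and the TGF-beta arm), and the 5 genes most correlated with Id1. Bmp3, Cav1, Acvr2a, Nog and Id4 were named after their values were seen. Alternatives covered the use of technical arrays, normalization, probe filters, weights for arrays, moderation and a block for the replicate number, fitted without control 4. They also covered the within-animal SD as a term and leaving out animals. The endothelial mean as a term and the fit without MetS 1 and control 1 were added after seeing the data.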

Additional observations from a re-analysis of the deposited data

Results flagged for a closer look

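Ccn2, a TGF-beta target gene, read 9.75 in control 3, against 10.49 to 10.50 in the other controls, a gap far wider than the spread of those 3. Its values in the MetS animals were 10.11 to 10.78. The 4 control values of 25 genes were examined in this way, and 1 group was marked, while chance alone marks about 1 in 20 such groups. Bmp3 and Nog, whose control 3 and control 1 lay apart from the other controls, were not among the 25.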

How the results depend on the processing

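With 3 MetS and 4 control animals, the log2 intervals of the 10 genes were between 0.40 and 0.72 wide from end to end. The limma calls stayed at 0 for the 10 genes and for the further BMP, hereditary and TGF-beta lists under all 22 alternatives each, and the smallest adjusted p of the 10 was 0.282. The replicate block was fitted without control 4, which has no MetS animal of its number. The probes called numbered 2017 with this block and 0 under the other 21, leaving out control 4 alone among them. For deviations from the group means, same-numbered MetS and control animals correlated at 0.27, -0.12 and 0.34 over all probes. Differently numbered animals were not set beside them, so these values do not show whether the numbers pair the animals. The split at the unadjusted threshold was 1102 higher and 2857 lower, but 2316 and 1987 after quantile normalizing again and 483 and 540 with the SD in the model. Of the 10 genes, 0 had groups that did not overlap, but 4 did without MetS animal 1 and 4 without MetS 1 and control 1, and leaving out each animal in turn gave 0 to 4.

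The probe filters, the moderation setting and the mean of all probes cannot move the difference of a gene with 1 probe, so those values were fixed in advance. Bmpr2, Acvrl1 and Id3 kept their direction under 21 alternatives each, and 25 of the 210 values of the 10 genes turned. After quantile normalizing again these read Bmp4 -0.031, Smad6 -0.013, Smad9 -0.024 and Grem1 0.046. Centring on the median gave Bmpr1a 0.002. Array weights gave Bmp4 -0.056 and Bmpr1a 0.001. The replicate block, fitted without control 4, gave Bmpr1a 0.029, as did leaving out control 4 alone. With the within-animal SD in the model they were Bmp4 -0.134, Bmp6 -0.118, Smad1 -0.033, Id1 -0.169, Smad9 -0.031, Chrdl1 -0.275, Grem1 0.023, Sox17 -0.10, Tgfbr1 -0.081 and Ccn2 -0.099. Without controls 2 and 3 they were Bmp4 -0.068, Bmp6 -0.034, Smad6 -0.002, Id1 -0.048, Chrdl1 -0.039, Sox17 -0.001 and Ccn2 -0.027. Leaving out each animal in turn gave Bmp4 -0.108 to 0.093, Bmpr1a -0.079 to 0.045, Eng -0.118 to 0.218, Smad6 -0.016 to 0.186 and Ccn2 -0.027 to 0.341. On leaving out each animal, the correlation of Acvrl1 with Eng ran from 0.856 (adjusted p = 0.0667 by exact permutation, without MetS 3) to 0.920, and it was 0.928 after quantile normalizing again. The cause was not tested in any case.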

Other observations

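Among the deposited values, 40.9% of the 28826 probes hold the same value to the last digit on at least 2 of the 9 arrays. This was so for 1 of the 10 BMP genes, Bmp6, and for 11 of the 45 further BMP genes. Nog, which codes for the BMP antagonist noggin, stood at 6.53, 6.55 and 6.54 in MetS animals 1 to 3, against 6.38 in control 1 and 6.51 in each of controls 2, 3 and 4, so its groups without overlap differed by only 0.06.

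Id4, another ID gene, stood at 7.83, 8.07 and 7.88 in MetS lungs, against 7.78, 7.76, 7.69 and 7.80 in control lungs, a difference of 0.17 (limma adjusted p = 0.377). Id2 differed by -0.03 with overlapping groups.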
